A study of Neurospora crassa with 4 samples.

Results

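The 7 genes described here encode the enzymes that build and break down glycogen and trehalose, the carbon reserves of *Neurospora crassa*. They were chosen by locus tag for this function, and all 7 were among the 7793 genes of the deposited table. The libraries were made by 3′ End Sequencing from 2 ΔCFIm cultures and 2 control cultures, which are biological duplicates of 1 strain per genotype. The ΔCFIm strain carries *cpsf5*/NCU09014::hphR and *cpsf6*/NCU02152::hphR, deletions of both subunits of the mRNA cleavage factor CFIm, and the control strain lacks these deletions. Both strains carry the same luciferase reporter, *csr-1*::cbox-luciferase::barR, and grew on cellophane-covered plates for 72 h at 25°C in constant light with 0.25% glucose and 0.17% arginine. These are the levels in the medium at the start. The paper states that older tissue passes from high to low nutrients within the 72 h. The label of the control strain gives its mating type as MAT A and that of the ΔCFIm strain gives none, and the mating-type gene *matA-1* had 0 and 0 normalized counts in ΔCFIm libraries, against 152 and 160 in control libraries. A difference in mating type and the loss of CFIm cannot be told apart with these strains.

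Glycogen is a branched polymer of glucose. Glycogenin makes the primer, glycogen synthase extends it and the branching enzyme adds the branch points, while glycogen phosphorylase releases glucose 1-phosphate from the chain ends and the debranching enzyme removes the branches. Trehalose is a disaccharide of glucose that fungi store in conidia and use to protect proteins and membranes against heat and drying, and trehalase splits it back into glucose. In *Neurospora* glycogen gathers during vegetative growth, the reserves are under the control of the circadian clock, and *ccg-9* was named as a clock-controlled gene. The cultures here were sampled at a single time in constant light, so the values are levels and hold no rhythm.

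The table gives normalized counts, which are reads counted on a gene and scaled to the same total in every library. Between 5572762 and 6053869 reads were counted on genes per library. In a 3′ end library an mRNA gives a read at its end whatever its length, so levels of different genes are compared here without a correction for length. Reads were counted on annotated genes, and the paper reports poly(A) signal that lies outside an annotated 3′ end, as at *frq*. Whether this touches the counts of the reserve genes, in either genotype, was not tested. The label check held in direction for the deleted genes. The *cpsf5* gene had 2.96 and 0 normalized counts in ΔCFIm libraries, against 214 and 192 in control libraries. The *cpsf6* gene had 25.7 and 26.0 in ΔCFIm libraries, against 141 and 160 in control libraries. Counts thus remained on *cpsf6* in ΔCFIm libraries, and their source was not tested. The harvest held both mycelia and conidia. Of 6 conidiation markers 5 were in the table, all of them were abundant and 0 passed the limma threshold described below. The summed level of the 4 without the hydrophobin gene *eas* was 122179 and 202679 normalized counts in ΔCFIm replicates 1 and 2, against 190494 and 179308 in control replicates 1 and 2, and each of these 4 genes was lower in ΔCFIm replicate 1 than in ΔCFIm replicate 2. The *eas* gene went the other way, with 611475 and 545275 normalized counts in ΔCFIm replicates 1 and 2, against 562943 and 584252 in control replicates 1 and 2. It made up most of the sum over all 5 markers, which was 733655 and 747954 in ΔCFIm replicates 1 and 2, against 753437 and 763560 in control replicates 1 and 2. Among the 5 markers only *con-8* had both ΔCFIm libraries below both control libraries, as 26.5% of all tested genes did. It had 34801 and 57359 normalized counts in ΔCFIm libraries, against 64873 and 75140 in control libraries. In such bulk libraries fewer cells of a type and less RNA per cell cannot be told apart.

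None of the 7 reserve genes passed the test for a difference between ΔCFIm and control, and the 95% interval of each change included 0. The test was limma on log2(normalized count + 1) across the 6949 genes that averaged 10 or more normalized counts, and the threshold was a Benjamini-Hochberg adjusted p under 0.05. Of the reserve genes 0 of 7 passed as higher in ΔCFIm, where 4.62% of all tested genes did, and 0 of 7 as lower, where 3.38% did. Without adjustment 0 of 7 reserve genes had a p under 0.05, where 22.5% of all tested genes did, and 0 of 7 passed in edgeR's quasi-likelihood test on the recovered reads, where 10.4% of all tested genes passed, or in DESeq2 on the same reads, where 7.25% passed. The log2 fold changes lay between 0.10 and 0.35 and all 7 were positive, with a median of 0.20, against a median of -0.01 over all tested genes, of which 48.9% were positive. On this scale a positive value means a higher level in ΔCFIm. In 3 of the 7 genes (*gsn*, *gbn* and *ccg-9*) both ΔCFIm libraries lay above both control libraries, as they did in 25.9% of all tested genes, and in 0 of 7 both lay below, as in 26.5% of all tested genes. With 2 libraries per genotype an exact permutation test cannot give a p under 0.333, so that test of a single ratio could not reach the threshold.

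**Figure D1:**
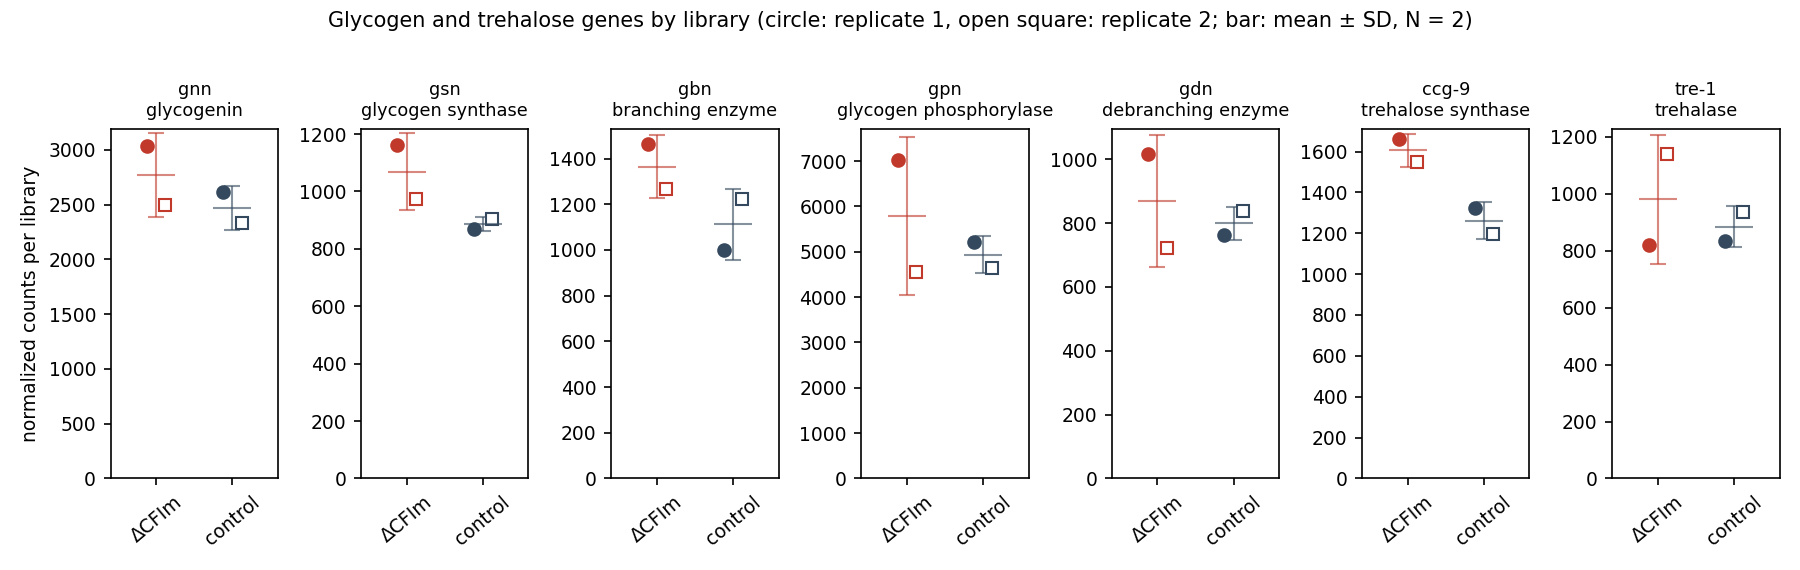
Normalized counts (vertical axes, each starting at 0) of the 7 reserve genes in ΔCFIm and control libraries. Circles are replicate 1, open squares are replicate 2, and the horizontal bar and whiskers give the mean ± SD (N = 2). In *gsn*, *gbn* and *ccg-9* both ΔCFIm libraries are above both control libraries, and in the other 4 genes the genotypes overlap.

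The genes of glycogen synthesis come first. Glycogenin, *gnn* (NCU06698), had 3038 and 2497 normalized counts in ΔCFIm libraries, against 2614 and 2331 in control libraries. The genotypes overlapped, since ΔCFIm replicate 2 was below control replicate 1. The log2 fold change was 0.16 (SE 0.18, 95% interval -0.23 to 0.54, limma adjusted p = 0.656). The gene lies on linkage group V at 4316579 to 4320011 of the NC12 build and overlaps its neighbour NCU06697 by 157 bp. That neighbour had 20.7 and 36.9 normalized counts in ΔCFIm libraries, against 46.2 and 31.9 in control libraries. What the overlap does to the count of *gnn* was not tested.

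Glycogen synthase, *gsn* (NCU06687, linkage group V, 4278032 to 4282081), had 1163 and 974 normalized counts in ΔCFIm libraries, against 870 and 905 in control libraries. Both ΔCFIm libraries were above both control libraries, and the ΔCFIm libraries lay further apart than the control libraries did. The means were 1068 ± 134 in ΔCFIm and 887 ± 25.0 in control (SD, N = 2 each), a log2 fold change of 0.26 (SE 0.17, 95% interval -0.11 to 0.63, limma adjusted p = 0.400). With ΔCFIm replicate 1 left out the log2 fold change was 0.13. The synthase is the enzyme that adds glucose from UDP-glucose to the growing chain.

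The branching enzyme gene, *gbn* (NCU05429, linkage group II, 1607466 to 1611047), had 1463 and 1267 normalized counts in ΔCFIm libraries, against 1001 and 1223 in control libraries. The genotypes did not overlap, but ΔCFIm replicate 2 and control replicate 2 were close to each other. The log2 fold change was 0.30 (SE 0.18, 95% interval -0.08 to 0.68, limma adjusted p = 0.350). It was 0.15 without control replicate 1 and 0.44 without control replicate 2.

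The genes of glycogen breakdown had the ΔCFIm libraries on both sides of the control libraries. Glycogen phosphorylase, *gpn* (NCU07027, linkage group IV, 4959082 to 4962268), had 7027 and 4550 normalized counts in ΔCFIm libraries, against 5220 and 4643 in control libraries. ΔCFIm replicate 1 was the highest of the 4 libraries and ΔCFIm replicate 2 the lowest. The log2 fold change was 0.20 (SE 0.21, 95% interval -0.26 to 0.66, limma adjusted p = 0.639). Without ΔCFIm replicate 1 it was -0.11, and without ΔCFIm replicate 2 it was 0.51 with a limma adjusted p of 0.0446, so the direction and the call both rested on which ΔCFIm library was used. In that fit the lone ΔCFIm library is assumed to vary as the control libraries do.

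The debranching enzyme gene, *gdn* (NCU00743, linkage group I, 7352112 to 7358123), reached 1015 and 723 normalized counts in ΔCFIm libraries, against 762 and 836 in control libraries. As for *gpn*, ΔCFIm replicate 1 was the highest library and ΔCFIm replicate 2 the lowest. The log2 fold change was 0.10 (SE 0.19, 95% interval -0.31 to 0.52, limma adjusted p = 0.807), and without ΔCFIm replicate 1 it was -0.14. Both *gsn* and *gdn* are on the study's list of genes with several poly(A) sites, and a count per gene does not show which site was used.

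The trehalose genes were *ccg-9*, the clock-controlled trehalose synthase, and *tre-1*, a trehalase. The *ccg-9* gene (NCU09559, linkage group VII, 1002874 to 1007545) had 1663 and 1550 normalized counts in ΔCFIm libraries, against 1325 and 1197 in control libraries. All ΔCFIm values were above all control values, and it was the reserve gene with the highest log2 fold change. The means were 1606 ± 79.9 in ΔCFIm and 1261 ± 90.9 in control (SD, N = 2 each), a log2 fold change of 0.35 (SE 0.17, 95% interval -0.01 to 0.71, limma adjusted p = 0.239). In linear terms this is 1.27-fold, with an interval of 0.992 to 1.64. With each library left out in turn the log2 fold change stayed between 0.28 and 0.42, and in none of these 4 fits did the gene pass the threshold.

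Trehalase, *tre-1* (NCU00943, linkage group I, 6632519 to 6635173), reached 820 and 1140 normalized counts in ΔCFIm libraries, against 834 and 935 in control libraries. Here ΔCFIm replicate 2 was the highest library and ΔCFIm replicate 1 the lowest, the opposite of *gpn* and *gdn*. The log2 fold change was 0.13 (SE 0.19, 95% interval -0.28 to 0.55, limma adjusted p = 0.741), and without ΔCFIm replicate 2 it was -0.11. The gene overlaps its neighbour NCU10847 by 78 bp, and that neighbour had 246 and 259 normalized counts in ΔCFIm libraries, against 254 and 263 in control libraries.

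**Figure D2:**
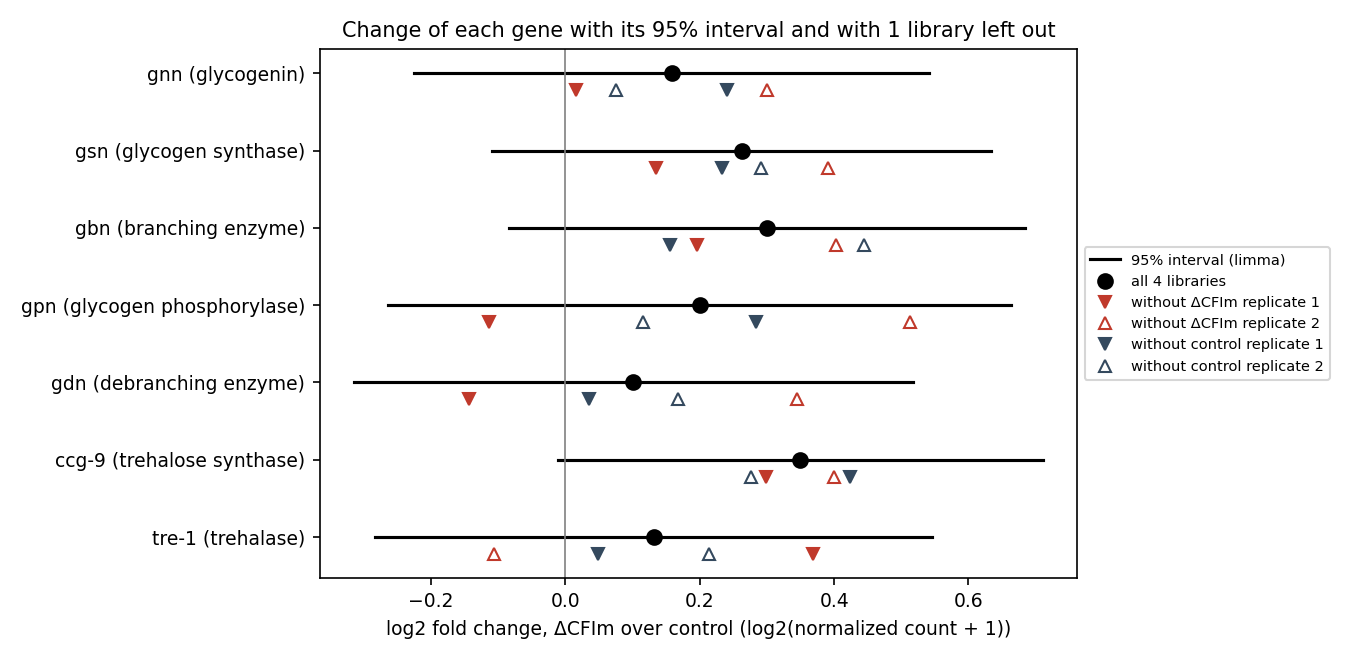
Log2 fold change of ΔCFIm over control (horizontal axis) for the 7 reserve genes, from the synthesis of glycogen at the top to trehalase at the bottom. Black points and lines are the limma values and 95% intervals from all 4 libraries, and triangles are the values with 1 library left out. All 7 intervals include 0, and the values without 1 ΔCFIm library fall below 0 for *gpn*, *gdn* and *tre-1*.

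Both the number of reads and the spread between libraries can limit these comparisons, and the part of each was not tested. The reserve genes had between 724 and 7112 reads in each library, and counting error alone was at most 3.72% of a value. Their mean levels ranked between the 83.2nd and the 97.7th percentile of the tested genes. Between the ΔCFIm replicates the median absolute difference of the 7 genes was 0.28 on the log2 scale, against 0.24 for all tested genes, and between the control replicates it was 0.16, against 0.18 for all tested genes. The largest of these differences belonged to *gpn*, whose level in ΔCFIm replicate 1 was 1.54 times that in ΔCFIm replicate 2, and 89.9% of tested genes differed less between the ΔCFIm replicates. The smallest absolute log2 fold change that passed the threshold among the tested genes nearest in level to the reserve genes (the nearest 200 for each) was 0.60, above all 7 values here.

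Most of the reserve genes were highest in the same library. In 6 of the 7 genes ΔCFIm replicate 1 was the highest of the 4 libraries, and *tre-1* was highest in ΔCFIm replicate 2. Of all tested genes 35.5% were highest in ΔCFIm replicate 1, and 62.2% were higher in it than in ΔCFIm replicate 2. On the log2 scale ΔCFIm replicate 1 minus ΔCFIm replicate 2 was 0.63 for *gpn*, 0.49 for *gdn* and -0.48 for *tre-1*, and between 0.10 and 0.28 for *ccg-9*, *gbn*, *gsn* and *gnn*. The same library had the lowest summed level of the 4 conidiation genes given above and the highest level of *eas*, and the part of these differences in the reserve genes was not tested.

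**Figure D3:**
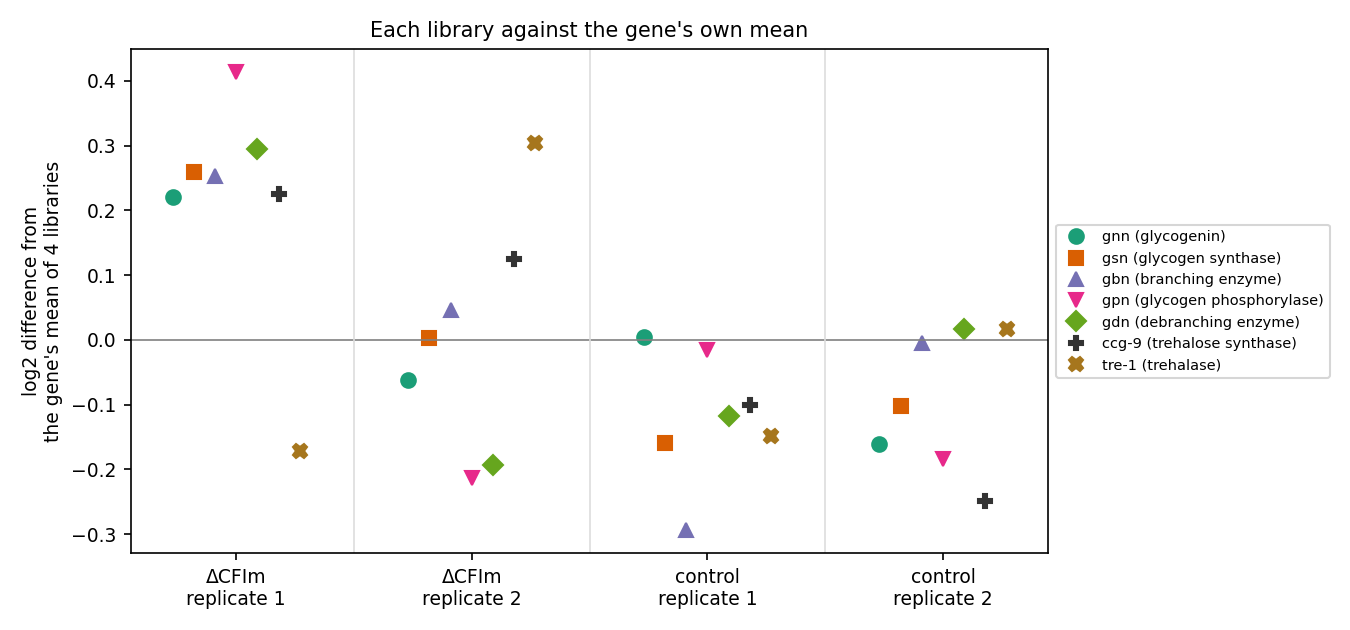
Log2 difference of each library from the mean of the 4 libraries (vertical axis) for each reserve gene. In ΔCFIm replicate 1 (left) 6 of 7 genes lie above their mean and *tre-1* lies below it, and in ΔCFIm replicate 2 *gpn*, *gdn* and *gnn* lie below their mean.

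The levels of the reserve genes kept much the same order in all libraries. Averaged over the 4 libraries, *gpn* had 5360 normalized counts, *gnn* 2620, *ccg-9* 1434, *gbn* 1239, *gsn* 978, *tre-1* 932 and *gdn* 834. The lowest library of *gpn* was above the highest of *gnn*, and the lowest of *gnn* was above the highest of *ccg-9*. From *ccg-9* down the ranges of neighbours overlapped, although *gbn* was above *gsn* within each of the 4 libraries. Glycogen phosphorylase thus had the highest level of the reserve genes in every library, and it took 43.4% and 35.8% of their reads in ΔCFIm libraries, against 41.3% and 38.5% in control libraries.

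Within a library, the level of glycogen synthase relative to glycogen phosphorylase sets a gene of synthesis against a gene of breakdown. The ratio of *gsn* to *gpn* was 0.165 and 0.214 in ΔCFIm libraries, against 0.167 and 0.195 in control libraries. The genotypes overlapped, with a log2 difference of 0.06 (exact two-sided permutation p = 1), and the difference was -0.12 without ΔCFIm replicate 2 and -0.05 without control replicate 1. The ratio of *ccg-9* to *tre-1*, chosen after the values were seen, was 2.03 and 1.36 in ΔCFIm libraries, against 1.59 and 1.28 in control libraries. These also overlapped, with a log2 difference of 0.22 (exact two-sided permutation p = 0.667) that was -0.070 without ΔCFIm replicate 1. For both ratios the permutation p could not be under 0.333, so this test cannot decide whether the genotypes differ.

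Together the 7 genes took 0.277% and 0.217% of the counted reads in ΔCFIm libraries, against 0.216% and 0.206% in control libraries. The 5 glycogen genes took 0.234% and 0.171% in ΔCFIm libraries, against 0.179% and 0.170% in control libraries, so that ΔCFIm replicate 2 fell within the control range. The 2 trehalose genes took 0.0424% and 0.0460% in ΔCFIm libraries, against 0.0369% and 0.0364% in control libraries, and here both ΔCFIm libraries were above both control libraries. These shares are given as values, with no test.

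**Figure D4:**
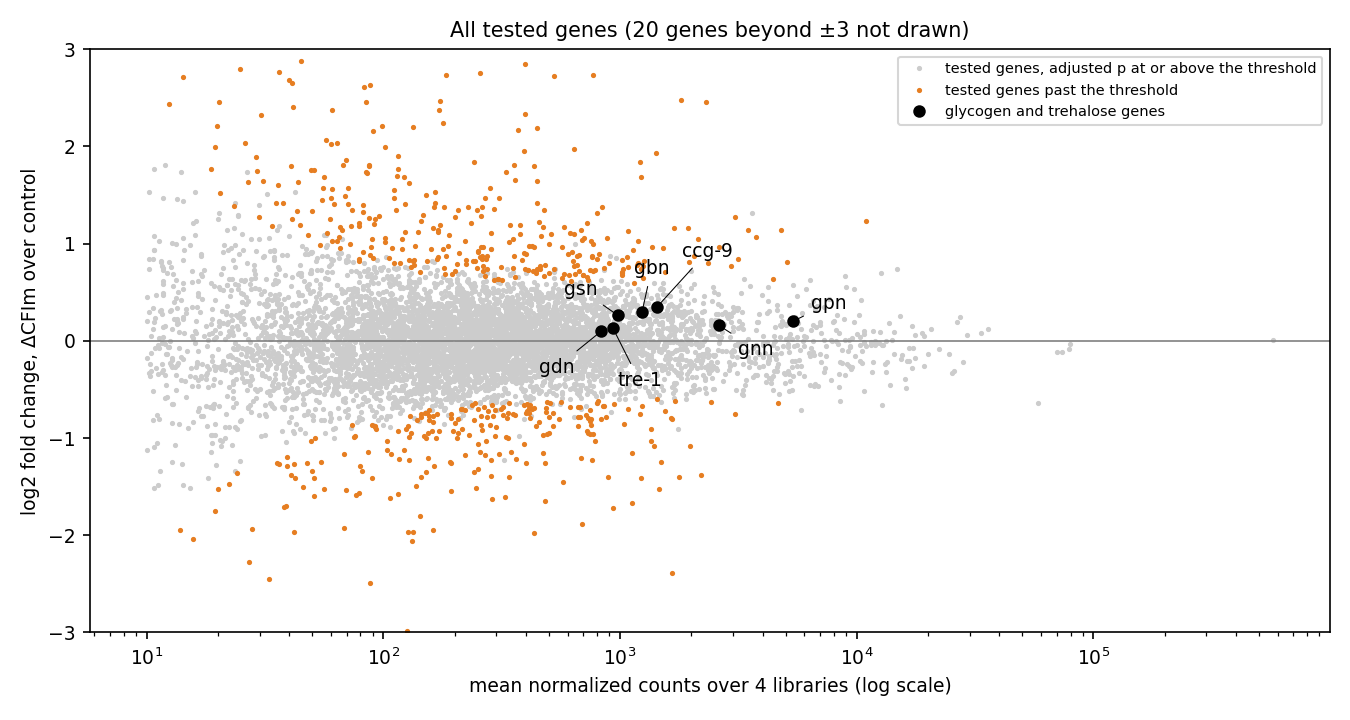
Log2 fold change of ΔCFIm over control (vertical axis) against mean normalized counts over 4 libraries (horizontal axis, log scale) for the 6949 tested genes, with genes past the limma threshold in orange and the 7 reserve genes in black. The reserve genes lie between 0.10 and 0.35 within the grey band of genes that did not pass, and 20 genes beyond ±3 are not drawn.

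The other genes of the same pathways that were looked at did not pass the test either, but the search was not complete. The annotation used names a product for 1455 of the 7793 genes, and a search by product cannot find the rest. The only other gene whose product matched the search terms for reserve metabolism was NCU09715, a putative α,α-trehalose phosphate synthase. It had 1516 and 1521 normalized counts in ΔCFIm libraries, against 1308 and 1312 in control libraries. The replicates were very close and the genotypes did not overlap, but the log2 fold change of 0.21 did not pass the limma threshold (SE 0.16, adjusted p = 0.487). The limma SE of a gene draws on the spread of other genes of its level, here wider than its own. The gene *tre-2*, named by its symbol as a trehalase and added after its values could be seen, had 794 and 748 normalized counts in ΔCFIm libraries, against 655 and 879 in control libraries (log2 fold change 0.02, limma adjusted p = 0.960).

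Of 12 genes listed as regulators of these reserves or of the clock that acts on them, 1 passed the threshold as higher in ΔCFIm and 1 as lower, where 4.62% and 3.38% of all tested genes did. In 2 of 12 the log2 fold change was positive, against 48.9% of all tested genes, and its median was -0.17, against -0.01. The locus NCU05964, which has no gene symbol in the annotation used, had 369 and 262 normalized counts in ΔCFIm libraries, against 185 and 183 in control libraries. It rose by 0.75 on the log2 scale in ΔCFIm (SE 0.20, limma adjusted p = 0.0378). The *wc-2* gene, which encodes a subunit of the white collar complex that drives the clock and the response to light, had 351 and 297 normalized counts in ΔCFIm libraries, against 513 and 537 in control libraries. It was lower in ΔCFIm, with a log2 fold change of -0.70 (SE 0.18, limma adjusted p = 0.0281). Neither gene passed without control replicate 1 or without control replicate 2, where 0 of 12 did, and without ΔCFIm replicate 1 only *wc-2* passed. The other positive value belonged to *xlr-1*, a transcription factor gene with 302 and 238 normalized counts in ΔCFIm libraries, against 183 and 152 in control libraries, which did not pass (log2 fold change 0.68, SE 0.20, limma adjusted p = 0.0560). The carbon catabolite repressor *cre-1* had 885 and 847 normalized counts in ΔCFIm libraries, against 864 and 965 in control libraries, and did not pass.

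As *ccg-9* had the highest log2 fold change of the reserve genes, the genes with the most similar pattern over the 4 libraries were looked up. Likeness was the root mean square difference between log2 values after each gene was centred on its mean, over 6107 genes that averaged 50 or more normalized counts. The nearest 3 were NCU05423 (0.017), NCU03500 (0.017) and NCU06738 (0.021). Such a match is common over 4 libraries, since 402 genes lay within 0.1 of *ccg-9*. The nearest genes did not pass the limma threshold either, with NCU06738 at 846 and 795 normalized counts in ΔCFIm libraries, against 656 and 614 in control libraries (log2 fold change 0.37, limma adjusted p = 0.213).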

How the data were processed

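The authors prepared strand-specific 3′ end libraries (Lexogen QuantSeq 3′ REV, 75 bp single-end reads), aligned them with STAR to the *N. crassa* NC12 genome (FungiDB version 45) and counted reads per gene with HTSeq. The strand setting and the versions of STAR and HTSeq are not given in the sources used here. The deposited values are a normalized signal, read counts scaled by the authors to the same total in each library. Dividing by the value of 1 read gave back the reads, of which 100% were whole within 0.001. Symbols and positions come from the NC12 RefSeq annotation, which 7792 of 7793 genes matched.

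Expression was compared with limma 3.58.1 in R 4.3.3 on log2(normalized count + 1) with a trended eBayes step, over genes averaging 10 or more, with Benjamini-Hochberg adjustment over 6949 genes. Ratios were tested by exact permutation over libraries. The limma p-values set a difference against the spread between cultures of 1 strain per genotype, moderated by the spread of other genes. The permutation p-values compare the ways to assign the libraries to genotypes and cannot be under 0.333. The tests were checked on simulated data. The members, gene lists and tests were chosen with earlier results of these data known.

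The genes named were the 7 members, the deleted genes, genes of the reserve and regulator lists that passed the threshold or had the largest changes, and the 3 genes nearest *ccg-9* in pattern. The genes *tre-2*, *cre-1*, *xlr-1*, *eas* and *matA-1* and the overlapping neighbours are not covered by the rule, their values being visible when they were added. Alternatives were pseudocounts of 0.1 and 5, no filter or a minimum mean of 50, median-of-ratios scaling, quantile normalization, a replicate block, eBayes without a trend, edgeR 4.0.16 and DESeq2 1.42.0 on the recovered reads, and each library left out.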

Additional observations from a re-analysis of the deposited data

How the results depend on the processing

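The 7 reserve genes kept a positive log2 fold change and stayed on the same side of the threshold under all 10 alternatives that used the 4 libraries. With a library left out, 0 to 1 of 7 passed. The log2 fold change then ranged from -0.11 to 0.51 for *gpn*, from -0.14 to 0.35 for *gdn* and from -0.11 to 0.37 for *tre-1*, and stayed positive for the other 4. The ratio of *gsn* to *gpn* ranged from -0.12, and was -0.05 without control replicate 1, to 0.25 on the log2 scale, and that of *ccg-9* to *tre-1* turned to -0.070 without ΔCFIm replicate 1. The count over all genes, 556, ranged from 333 (without control replicate 2) to 1132 (without ΔCFIm replicate 2). Of the 12 regulators 2 passed, but 3, with *xlr-1* added, under edgeR, the replicate block, quantile normalization and median-of-ratios scaling, 1 with no filter on low values, 0 with eBayes without a trend, and 0 to 4 with a library left out.

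The labels give both genotypes replicate numbers 1 and 2 without saying what a number stands for. Libraries of the same number had deviations that correlated weakly (Pearson's r = 0.137, Spearman's rho = 0.160, across genes, which are not independent). When the replicate number was fitted as a block the count was 890 genes, and 0 of 7 reserve genes did.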
